A study of Mus musculus with 6 samples.

Results

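The genes described here are those of the type I interferon response, measured in precursor B cells of the mouse that carry the oncogene BCR-ABL1, a fusion tyrosine kinase that drives Philadelphia chromosome-positive leukaemia. They were given as a list of 41 genes known as components or targets of the pathway. A gene was measured where an array probe set, the group of probes that reports 1 transcript, carried its symbol and no other. That held for 38 of the 41 genes, out of 19938 genes measured in the same way. Isg15 and Gbp2 lie on probe sets that carry several symbols, and no probe set carried the symbol Ifi44, so these 3 genes have no value here. The study compared 3 arrays of cells from Dusp6 wild-type mice with 3 arrays of cells from Dusp6 knockout mice. All 6 samples share the BCR-ABL1 transformation, and the labels describe the background of each as mixed C57Bl/6-SV129j. A mixed background can hold different strain alleles in wild-type and knockout cells. Whether it did was not tested, so strain differences cannot be told apart from the Dusp6 genotype here. The labels give no age, no treatment and no interferon exposure. Dusp6 encodes a phosphatase that inactivates the kinase ERK. The labels name neither the deleted part of Dusp6 nor the number of animals or cultures, so p-values cover no more than the spread among these arrays, and that spread may be technical.

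Type I interferons are cytokines that cells release when they sense foreign or misplaced nucleic acid. They bind the receptor chains IFNAR1 and IFNAR2, whose kinases TYK2 and JAK1 activate STAT proteins, among them STAT2. STAT2 and IRF9 are subunits of a transcription factor that binds the interferon-stimulated response element (ISRE) in the promoters of target genes. The targets encode antiviral enzymes, sensors and feedback inhibitors, and lymphoid cells keep a low tonic level of this programme without infection.

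As a check of the labels, Dusp6 signal was 10.3-fold lower in knockout (log2 signal 12.44 ± 0.072 against 9.08 ± 0.058, SD, n = 3 each). The correlation over probe sets was 0.996 to 0.998 within a genotype and 0.987 to 0.989 between genotypes. The labelled cell type was checked against 18 measured markers of B cell precursors. Of these, 14 lay above the upper quartile of every array in both genotypes, among them the B cell receptor chains Cd79a and Cd79b, the surrogate light chain gene Igll1 and the transcription factor gene Ebf1. Rag1, Rag2, Spn and Kit did not, and Kit was the lowest (7.41 in wild type, 7.43 in knockout).

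Promoter sequences of a few members are shown first. Some members that lie close together in the genome had unlike genotype differences and unlike response element letters upstream of their starts. A link between the letters and the differences was not tested. Each line holds the 230 bases before the transcription start, 5′ to 3′ on the gene's strand, from RefSeq's promoter table for GRCm38.p6. Capitals mark the letters GAAANNGAAA, the core of the ISRE, or their reverse complement TTTCNNTTTC. Ifit2, Ifit3 and Ifit1 belong to 1 gene cluster on chromosome 19 (chr19:34550464-34550693, chr19:34583299-34583528 and chr19:34640659-34640888, all on the plus strand). Rsad2 and Cmpk2 are neighbours on chromosome 12 that are read in opposite directions (chr12:26456453-26456682, minus strand, and chr12:26468985-26469214, plus strand). Stat2, a subunit of the factor that binds the ISRE, lies on chromosome 10 (chr10:128270268-128270497, plus strand). Dusp6 is on chromosome 10 too, and whether Stat2 carries a strain allele linked to the knockout was not tested.
Ifit2: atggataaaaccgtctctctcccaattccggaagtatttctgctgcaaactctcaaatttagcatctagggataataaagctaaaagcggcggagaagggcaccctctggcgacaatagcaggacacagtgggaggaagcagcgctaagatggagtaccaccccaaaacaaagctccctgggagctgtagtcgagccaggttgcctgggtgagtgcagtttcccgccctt
Ifit3: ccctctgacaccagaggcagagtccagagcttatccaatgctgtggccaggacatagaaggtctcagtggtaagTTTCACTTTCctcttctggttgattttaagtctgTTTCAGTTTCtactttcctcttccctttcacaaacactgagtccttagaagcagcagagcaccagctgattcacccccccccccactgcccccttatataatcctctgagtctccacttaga
Ifit1: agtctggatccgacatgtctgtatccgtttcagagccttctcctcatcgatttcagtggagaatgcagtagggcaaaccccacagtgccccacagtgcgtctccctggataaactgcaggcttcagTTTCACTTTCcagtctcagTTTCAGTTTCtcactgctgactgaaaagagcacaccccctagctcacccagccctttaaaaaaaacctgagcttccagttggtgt
Rsad2: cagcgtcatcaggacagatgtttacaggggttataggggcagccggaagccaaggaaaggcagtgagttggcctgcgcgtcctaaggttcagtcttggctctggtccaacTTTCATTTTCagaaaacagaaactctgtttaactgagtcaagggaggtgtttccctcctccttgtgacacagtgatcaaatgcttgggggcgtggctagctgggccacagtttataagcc
Cmpk2: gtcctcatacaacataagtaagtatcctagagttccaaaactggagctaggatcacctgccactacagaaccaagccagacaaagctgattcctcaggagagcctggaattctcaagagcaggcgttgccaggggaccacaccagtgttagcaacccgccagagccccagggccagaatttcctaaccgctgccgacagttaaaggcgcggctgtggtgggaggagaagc
Stat2: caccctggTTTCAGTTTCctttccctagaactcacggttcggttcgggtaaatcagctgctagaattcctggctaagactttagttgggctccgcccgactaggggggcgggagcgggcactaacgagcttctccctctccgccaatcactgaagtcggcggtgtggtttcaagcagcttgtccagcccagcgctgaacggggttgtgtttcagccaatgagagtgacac

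Most interferon response genes were higher in the knockout cells, by amounts below 2-fold. Of the 38 measured genes, 24 rose and 4 fell at a limma adjusted p under 0.05. Over all genes tested, 9.66% rose and 10.2% fell by the same threshold. The list was chosen with earlier results of these data known, so its excess over all genes is a description and not a test. The median log2 difference of the 38 genes was 0.24 (knockout minus wild type), against 0.0018 over all genes. A total of 31 genes had a difference above 0 and 7 below. Only Sp100 and Isg20 rose past 2-fold, and no member fell past 2-fold.

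On the single arrays, the median of the members relative to their wild-type means was 0.23, 0.23 and 0.27 in the 3 knockout arrays. It was 0.015, -0.0011 and -0.019 in the 3 wild-type arrays. The genotypes therefore did not overlap in this summary, and no single knockout array carried the shift. The 3 wild-type and 3 knockout values of a gene did not overlap in 29 members, 25 of them higher and 4 lower, compared with 17.3% and 18.4% of all genes. A difference above the 95th percentile of all genes (0.28) was seen in 18 members, and one below the 5th percentile (-0.27) in 3 members. In RNA from a bulk culture, a change in every cell and a change in a fraction of the cells cannot be told apart.

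**Figure D1:**
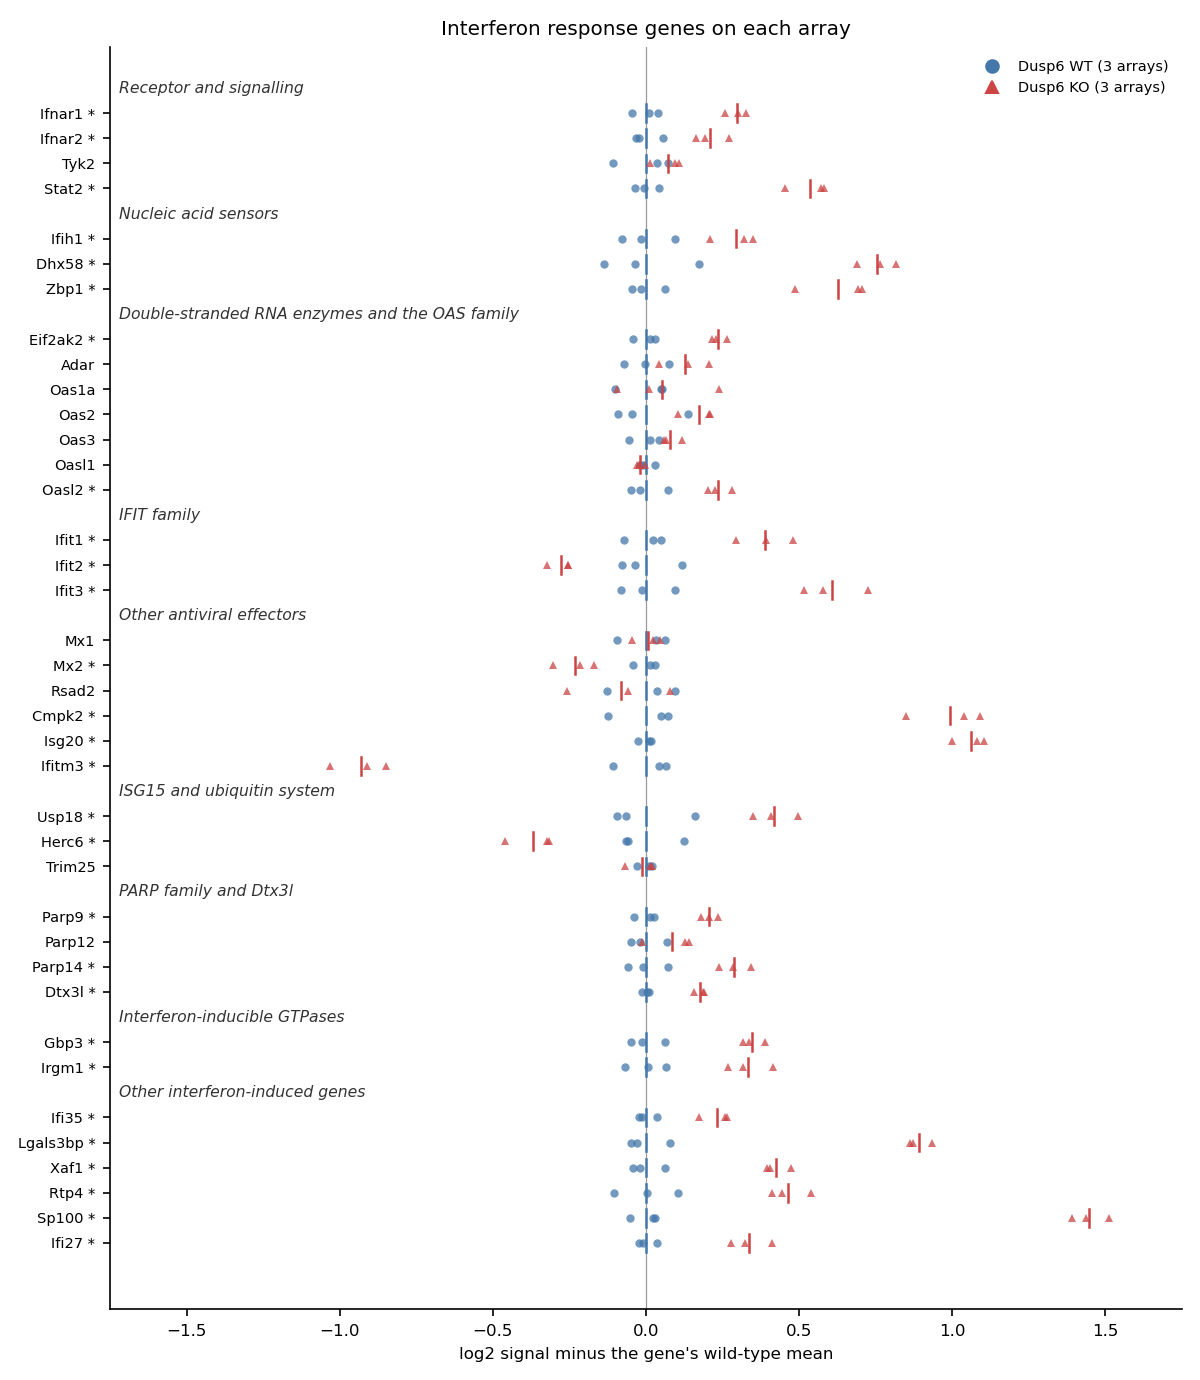
Log2 signal of the 38 interferon response genes on each of the 6 arrays, relative to each gene's wild-type mean (x axis, log2 units), grouped by role. Circles are Dusp6 WT arrays, triangles Dusp6 KO arrays, vertical ticks group means, and an asterisk marks a limma adjusted p under 0.05. Triangles lie to the right of the circles in 25 genes and to the left in Ifit2, Mx2, Ifitm3 and Herc6.

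The receptor and its signal transducer were among the genes that rose. Ifnar1, the receptor chain that anchors TYK2, had log2 signals of 11.94, 11.97 and 11.89 in wild type and 12.19, 12.24 and 12.26 in knockout. Every knockout array was above every wild-type array, and the difference was 0.30 ± 0.044 (SE; adjusted p = 0.0011). Ifnar2, the other receptor chain, gave 11.94, 11.85 and 11.86 against 12.05, 12.08 and 12.15. Its difference of 0.21 ± 0.047 was called (adjusted p = 0.013), but not without knockout replicate 3 (adjusted p = 0.054). Stat2 gave 10.40, 10.45 and 10.37 in wild type and 10.99, 10.86 and 10.98 in knockout. It was 1.45-fold higher with no overlap between the groups (difference 0.54 ± 0.049, adjusted p = 4.7e-05). Tyk2, the receptor-bound kinase gene, differed by 0.07 with overlapping groups (adjusted p = 0.45; 95% interval -0.05 to 0.20).

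All 3 nucleic acid sensors rose, beside 9.66% of all genes. Dhx58, which encodes LGP2, a helicase that modulates RNA sensing, gave 8.79, 8.59 and 8.49 against 9.38, 9.44 and 9.31. The lowest knockout value lay well above the highest wild-type value, and the difference was 0.76 ± 0.075 (1.69-fold, adjusted p = 7.9e-05). Zbp1, a sensor of left-handed nucleic acid that can trigger cell death, gave 8.91, 8.81 and 8.83 against 9.54, 9.34 and 9.56. It rose 1.55-fold (adjusted p = 9.4e-05). Ifih1, the gene of the double-stranded RNA sensor MDA5, rose by 0.29 ± 0.058 (adjusted p = 0.0061), with groups that were close together but did not overlap.

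The enzymes that act on or are activated by double-stranded RNA shifted less, and 2 of 7 passed the test. Both rose (28.6%), beside 9.66% of all genes. Eif2ak2, which encodes the kinase PKR that blocks translation, rose from 10.13 ± 0.038 to 10.37 ± 0.024 (SD, n = 3 each; difference 0.24, adjusted p = 0.0033). Among the OAS genes, whose classical products make the second messenger that activates RNase L, only Oasl2, a member of the OAS-like branch, passed (0.24 ± 0.048, adjusted p = 0.0067). Oas1a, Oas2, Oas3 and Oasl1 had differences of 0.05, 0.17, 0.08 and -0.02 and adjusted p from 0.098 to 0.81. The 95% interval for Oasl1 ran from -0.11 to 0.07, and that for Oas2 from 0.03 to 0.32. Oas2 ran from 7.96 to 8.19 in wild type and gave 8.26, 8.16 and 8.26 in knockout, so 1 knockout array lay inside the wild-type range. Without wild-type replicate 2, its highest wild-type array, Oas2 was called (difference 0.24, adjusted p = 0.017). Adar, the RNA editing enzyme gene, differed by 0.13 (adjusted p = 0.17). Oas1a has close copies in its gene cluster, and a second probe set that it shares with Oas1g was not used.

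The IFIT genes, which encode RNA-binding proteins that block translation of viral RNA, moved in both directions. Ifit3 gave 6.90, 6.97 and 7.07 in wild type and 7.56, 7.49 and 7.70 in knockout. It was 1.52-fold higher without overlap (difference 0.61 ± 0.065, adjusted p = 0.00013). Ifit1 gave 6.94, 6.97 and 6.84 against 7.40, 7.31 and 7.21, again without overlap (0.39 ± 0.058, adjusted p = 0.0011). Ifit2 gave 10.23, 10.39 and 10.19 against 9.95, 10.01 and 10.01. All 3 knockout values of Ifit2 lay below the wild-type values, and it fell by 0.28 (SE 0.057, adjusted p = 0.0072). In wild type, Ifit1 and Ifit3 had signals under the arrays' lower quartile (7.12 to 7.16). Whether such dim signals exceed background was not tested, so these sizes are less certain. In the promoter windows above, Ifit3 and Ifit1 each hold 2 matches to the ISRE letters and Ifit2 holds 0; the other Ifit2 start in the table had 0 as well.

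Other antiviral effectors held the widest range of the role groups. Isg20, a 3′ exonuclease that degrades single-stranded RNA, gave 10.46, 10.46 and 10.42 in wild type and 11.53, 11.55 and 11.44 in knockout. The spread within either genotype was small beside the difference of 1.06 ± 0.045 (2.09-fold, adjusted p = 2.4e-07). Cmpk2, a mitochondrial nucleotide kinase gene, gave 7.97, 7.78 and 7.95 against 8.94, 8.75 and 8.99. It rose 1.99-fold (adjusted p = 1.1e-05). Its neighbour Rsad2, which encodes the antiviral enzyme viperin, gave 6.87, 7.10 and 7.04 against 6.94, 7.08 and 6.74. The Rsad2 groups overlapped, though 1 knockout array (6.74) lay below every wild-type array. The difference was -0.08, with a 95% interval of -0.28 to 0.12 (adjusted p = 0.60).

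Ifitm3, a membrane protein that blocks the fusion of viruses with endosomes, had the largest decrease of the 38 genes. Its signals were 8.63, 8.46 and 8.60 in wild type and 7.65, 7.71 and 7.53 in knockout. The groups lay far apart, and the difference was -0.93 ± 0.063 (1.91-fold lower, adjusted p = 6.1e-06). Mx2, a dynamin-like GTPase gene, gave 6.72, 6.64 and 6.70 against 6.47, 6.38 and 6.51 and fell by 0.23 (adjusted p = 0.0083). Mx1 differed by 0.01 (95% interval -0.11 to 0.13, adjusted p = 0.94). Mx1 and Mx2 are annotated as transcribed pseudogenes in the RefSeq table of the reference strain C57BL/6J. The mean signals of Mx1, Mx2 and Rsad2 were below the lower quartile of the arrays in both genotypes, and the sizes of their differences are less certain for that reason.

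In the ISG15 and ubiquitin system, the 3 measured genes went 3 ways. Usp18, the protease that removes ISG15 and restrains signalling at IFNAR2, gave 8.04, 8.29 and 8.07 against 8.63, 8.48 and 8.54. It rose by 0.42 ± 0.071 (adjusted p = 0.0026). Herc6, the main ISG15 ligase gene of the mouse, gave 10.78, 10.59 and 10.60 against 10.20, 10.34 and 10.34 and fell by 0.37 (SE 0.064, adjusted p = 0.0031). Neither gene showed overlap between the groups. Trim25, a ubiquitin ligase gene that promotes RIG-I signalling, differed by -0.01 (95% interval -0.11 to 0.09, adjusted p = 0.89).

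Of 3 genes of the ADP-ribosylating PARP family and the partner gene Dtx3l, 3 of the 4 rose, by 0.18 to 0.29. That share is 75%, beside 9.66% of all genes. Parp9 and Dtx3l, whose products form a complex that modifies chromatin, rose by 0.21 ± 0.042 (adjusted p = 0.0069) and 0.18 ± 0.039 (adjusted p = 0.011). Parp14, next to them on chromosome 16, rose by 0.29 ± 0.050 (adjusted p = 0.0028). Parp12 differed by 0.08 with overlapping groups (adjusted p = 0.36). The interferon-inducible GTPase genes Gbp3 and Irgm1, whose products attack membranes around intracellular pathogens, also rose. Gbp3 gave 11.24, 11.32 and 11.21 against 11.59, 11.57 and 11.64 (difference 0.35, adjusted p = 0.00059), and Irgm1 rose by 0.33 ± 0.054 (adjusted p = 0.0020).

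The remaining 6 interferon-induced genes all rose, beside 9.66% of all genes. Sp100, a nuclear body protein gene, had the largest increase of the 38 genes. It gave 9.57, 9.49 and 9.56 in wild type and 10.93, 11.05 and 10.98 in knockout, which is 2.72-fold (difference 1.45 ± 0.048, adjusted p = 4.3e-08). The Sp100 locus holds near-identical predicted copies, and another probe set lists Sp100 together with them, so its signal may include theirs; this was not tested. Lgals3bp, a secreted glycoprotein gene, gave 9.46, 9.36 and 9.34 against 10.25, 10.32 and 10.26. It rose 1.85-fold with a narrow spread in both genotypes (adjusted p = 1.3e-06). Rtp4 rose by 0.47, the pro-apoptotic gene Xaf1 by 0.42, Ifi27 by 0.34 and Ifi35 by 0.23, with adjusted p from 0.00015 to 0.0054.

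Members that lie close together did not always move together. Counting genes annotated as protein-coding or transcribed pseudogenes, 9 pairs of successive members had at most 3 genes between them. In 4 pairs both genes rose (Ifnar2 with Ifnar1, Parp14 with Dtx3l, Dtx3l with Parp9, and Ifit3 with Ifit1). Ifit2 and Ifit3, with 0 genes between them, passed the test in opposite directions. In 3 pairs only 1 gene passed (Rsad2 and Cmpk2, Mx1 and Mx2, Oasl2 and Oasl1), and in the pair of Oas2 and Oas3 neither did. The difference between the 2 genes of a pair was not itself tested.

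**Figure D2:**
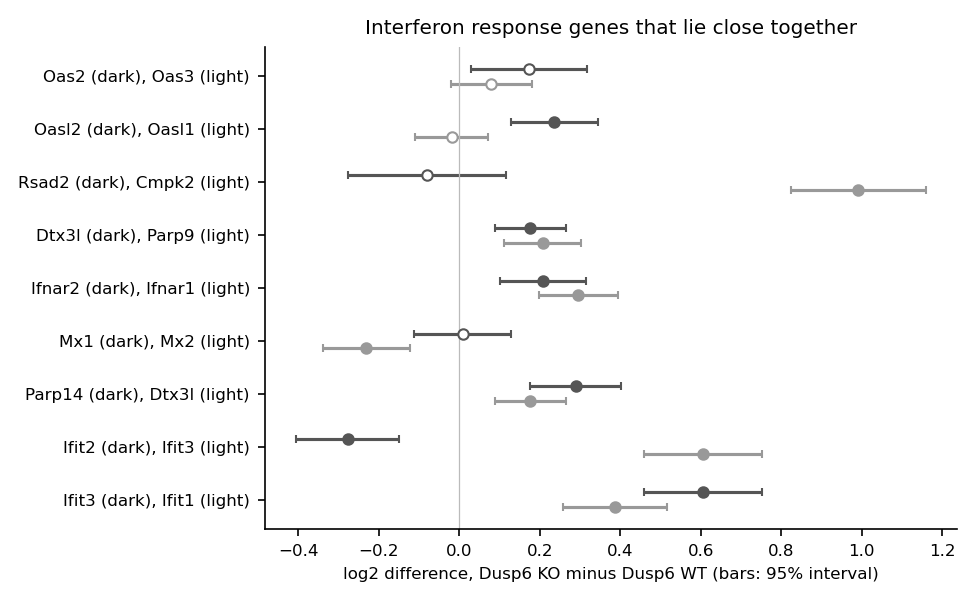
Log2 difference (knockout minus wild type, x axis) for 9 pairs of interferon response genes with at most 3 genes between them. Points are limma estimates from 3 arrays per genotype, bars 95% intervals, and open points genes that did not pass the test. Cmpk2 lies at 0.99 beside Rsad2 at -0.08, and Ifit3 at 0.61 beside Ifit2 at -0.28.

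The promoter windows of the members were searched for the ISRE letters and for TTCNNNGAA, the letters of the gamma-activated sequence (GAS) bound by STAT dimers, on both strands. Windows of 300 bases, from 250 before to 50 after the start, were found for 28 members (35 windows). ISRE letters occurred in 11 of these 28 genes (39.3%), compared with 3.89% of the 15563 tested genes that have a window. GAS letters occurred in 9 of 28 members (32.1%), compared with 9.01%. Both were present in 3 windows, and in 1 window the matches overlapped. Dhx58, Zbp1, Oas2, Mx1, Mx2, Usp18, Parp9, Parp14, Rtp4 and Ifi27 had no window.

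Members with and without the ISRE letters covered overlapping ranges of differences. Of the 11 members with a match, 7 rose, 1 fell (Ifitm3) and 3 did not pass, with a median difference of 0.29. Of the 17 members with a window but no match, 10 rose and 2 fell (Ifit2 and Herc6), with a median of 0.21. Over all genes tested, with or without a window, 9.66% rose and 10.2% fell. The 4 largest increases among members with a window, those of Sp100, Isg20, Cmpk2 and Lgals3bp, were in genes without these letters in the window. Rsad2, Oas1a and Oas3 had them and did not pass. These are descriptions of 2 short motifs in short windows, with no test.

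**Figure D3:**
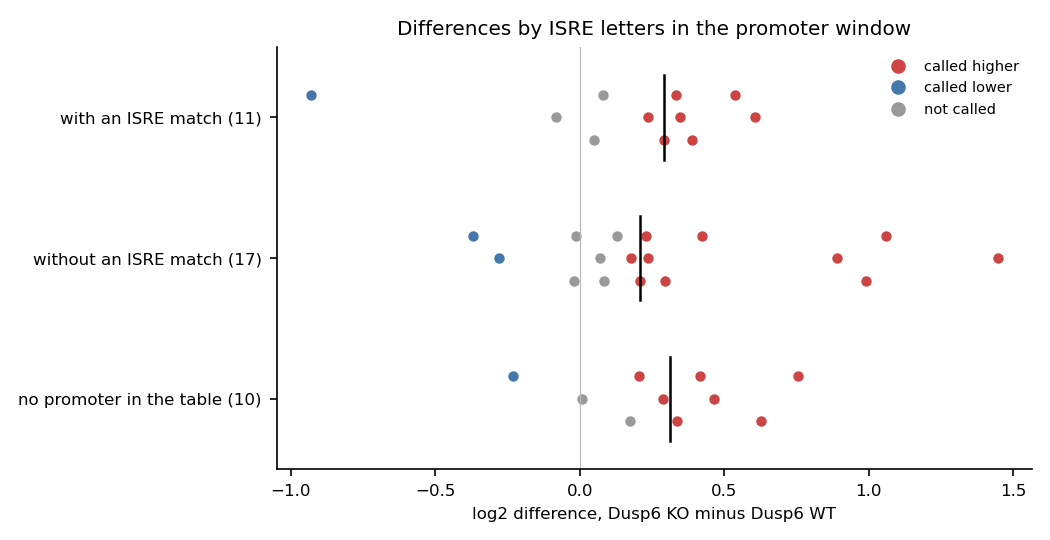
Log2 difference (knockout minus wild type, x axis) of each interferon response gene, split by whether its RefSeq promoter window holds the ISRE letters. Each point is 1 gene, coloured by its limma call, and black lines are medians (0.29 with a match, 0.21 without, 0.31 for genes with no window).

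Other steps of the pathway were read from lists of genes outside the 38. Of 16 interferon ligand genes, 1 rose (Ifnb1, 6.25% of the list) and 0 fell, beside 9.66% and 10.2% of all genes. An unadjusted limma p under 0.05 was seen in 4 of the 16 (25%), against 30.6% of all genes tested. Ifnb1, the gene of interferon beta, gave 6.80, 6.91 and 6.91 against 7.06, 7.02 and 7.10, all below the lower quartile of the arrays. Its difference of 0.19 (adjusted p = 0.022) was not called without wild-type replicate 1 or without knockout replicate 3, with adjusted p up to 0.087. Ifnb1, Ifna4, Ifna11, Ifna12, Ifna13 and Ifnk were below that quartile in both genotypes. Signal at this level was not tested against background.

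Of 22 other receptor and signal components, 6 rose (27.3%) and 2 fell (9.09%), beside 9.66% and 10.2% of all genes. Irf9, the DNA-binding subunit of the factor that also holds STAT2, gave 9.92, 9.94 and 10.02 against 10.42, 10.41 and 10.47. It rose by 0.47 ± 0.045 without overlap (adjusted p = 5.9e-05), beside the 0.54 of its partner Stat2. Socs3, a feedback inhibitor of JAK kinases, rose by 0.75, Il10rb, a shared cytokine receptor chain, by 0.46, the phosphatase gene Ptpn1 by 0.29, the interferon gamma receptor chain Ifngr2 by 0.28 and Stat3 by 0.20. The kinase gene Jak2 fell by 0.30 and the phosphatase gene Ptpn11 by 0.18. Ptpn11 was not called without wild-type replicate 2 (adjusted p = 0.056). Jak1, the partner kinase of Tyk2, differed by 0.07 (95% interval -0.02 to 0.17).

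The pathway that induces interferon gave 10 genes that rose (29.4%) and 7 that fell (20.6%) of 34, beside 9.66% and 10.2% of all genes. Tlr9, the endosomal DNA sensor of B cells, rose 2.70-fold, and Sting1, the adaptor for cytosolic DNA, rose by 0.53. Irf7, the factor that amplifies interferon production, rose by 0.31, the RIG-I gene Ddx58 by 0.29 and the nucleotide hydrolase gene Samhd1 by 0.27. The kinase gene Tbk1, the Toll-like receptor chaperone gene Unc93b1 and Irf8 rose by 0.22 each, Myd88 by 0.16 and Rnf135 by 0.15. Of those that fell, Tlr4 fell by 0.76, the editing enzyme gene Adarb1 by 0.70, Rnf125 by 0.39, the DNA sensor gene Cgas and the inhibitor gene Tnfaip3 by 0.24 each, Ddx41 by 0.23 and Rnaseh2a by 0.22. Myd88, Rnf135, Irf8 and Cgas were not called without at least 1 of the arrays, with adjusted p up to 0.16, 0.11, 0.071 and 0.064. The arrays concerned were wild-type replicates 1 and 2 and knockout replicate 3 for all 4 genes, and also wild-type replicate 3 and knockout replicate 1 for Myd88 and Rnf135. With each array centred on its median, Myd88 (adjusted p = 0.078) and Rnf135 (adjusted p = 0.066) were not called either.

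A second list held 101 measured genes that are also known to be induced by interferon. Of these, 29 rose (28.7%) and 9 fell (8.91%), beside 9.66% and 10.2% of all genes, with a median difference of 0.07. The 8 with the largest increases were Ms4a6b (2.69), the retroviral restriction factor gene Apobec3 (1.99), Ifi209 (1.54), Ms4a4c (1.13), Slfn5 (1.13), Nmi (0.77), Shisa5 (0.73) and the death ligand gene Tnfsf10 (0.71). The 8 largest decreases were Shfl, an inhibitor of ribosomal frameshifting (-1.89), the necroptosis effector gene Mlkl (-1.76), the ISG15-conjugating enzyme gene Ube2l6 (-0.35), Slfn8 (-0.33), Samd9l (-0.26), H2-Q4 (-0.24), Nt5c3 (-0.20) and Tor3a (-0.16). Nt5c3 and Tor3a were not called without wild-type replicate 2 or 3 or knockout replicate 1, nor Tor3a without knockout replicate 2 or 3 (adjusted p up to 0.089 and 0.11). The share that rose was smaller than among the 38 genes, and the difference between the lists was not tested.

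**Figure D4:**
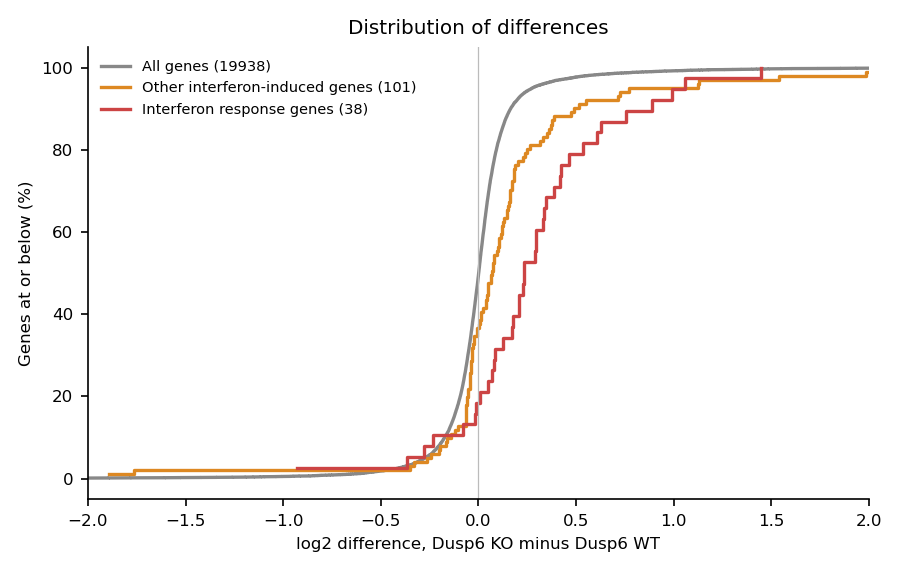
Cumulative distribution of log2 differences (knockout minus wild type, x axis, drawn from -2 to 2) for all 19938 genes, the 101 other interferon-induced genes and the 38 interferon response genes. The y axis is the percentage of genes at or below a difference; the curve of the 38 genes crosses 50% near its median of 0.24, that of the 101 near 0.07 and that of all genes near 0.

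Markers of other cell types that could make or answer interferon were read on the same arrays. Over all genes, 9.66% rose and 10.2% fell by the same threshold. Genes on these lists may also be expressed in the precursor B cells, and which cells gave their signal was not tested. An unadjusted limma p under 0.05 was seen in 6 of 24 myeloid and macrophage markers, against 30.6% of all genes. Of the 24, 4 rose (16.7%) and 0 fell, with Ly86 at 4.31 and Fcgr3 at 1.72. The others that rose, named after their values were seen, were the lysozyme genes Lyz2 (0.70) and Lyz1 (0.31). The median difference of the 24 was 0.04. Their mean log2 signal, which those 4 genes enter, was 7.75 to 7.78 on the wild-type arrays and 8.06 to 8.09 on the knockout arrays. Without wild-type replicate 3 or knockout replicate 1, 1 of the 24 fell. The monocyte and granulocyte markers Adgre1, Cd14, Ly6g, Ctsg and S100a8 lay below the lower quartile in both genotypes. Of 8 plasmacytoid dendritic cell markers, 1 rose (12.5%), Ly6d by 0.39, and 0 fell. An unadjusted limma p under 0.05 was seen in 4, against the same 30.6% of all genes. The mean of this list was 8.63 to 8.68 in wild type and 8.68 to 8.75 in knockout. Without wild-type replicate 3, 2 of the 8 rose. Ccr9 and Clec12a were below the lower quartile in both genotypes.

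Among 22 markers of T and NK cells, 4 rose (18.2%) and 2 fell (9.09%), with Cd2 at 1.02 and Klrd1 at 0.61. The shares of all genes were 9.66% and 10.2%. The genes that fell, named after their values were seen, were Lat (-0.44) and Zap70 (-0.15). Wild-type mean signals of Cd2 (10.62) and Lat (10.16) lay far above the mean of this list, and whether the precursor B cells gave them was not tested. Zap70 was not called without any 1 of the 3 wild-type arrays, or without knockout replicate 2 or 3 (adjusted p up to 0.15), and 1 of the 22 fell in each of those fits. The list mean was 7.57 to 7.58 in wild type and 7.65 to 7.72 in knockout, and Cd3d, Cd3g, Cd28, Klrb1c, Ncr1, Gzma, Gzmb, Eomes and Themis were below the lower quartile in both. Stromal and fibroblast markers gave 2 of 19 that rose (10.5%, near the 9.66% of all genes), Serpinf1 (0.48) and Fn1 (0.22). The mean of this list was 7.96 to 7.98 in wild type and 8.02 to 8.07 in knockout. Fn1 was not called without wild-type replicate 1 or knockout replicate 1 or 2 (adjusted p up to 0.071). Dcn, Lum and Postn were below the lower quartile in both. Among 10 markers of erythroid cells and megakaryocytes, 1 rose (10%, again near the 9.66% of all genes), Car1 by 0.16. It was not called when any of the 3 wild-type arrays, or knockout replicate 1 or 2, was left out (adjusted p up to 0.11), and the list mean was 8.24 to 8.31 against 8.24 to 8.28. Klf1, Pf4 and Ppbp lay below that quartile. The markers of the labelled cell type gave 4 that rose (22.2%) and 6 that fell (33.3%) of 18, with Dntt at -1.42 and Rag2 at -0.43. Without wild-type replicate 1, 2 rose and 6 fell, since Rag1 (adjusted p = 0.062) and Ptprc (adjusted p = 0.058) were then not called. Rag1 also lost its call without wild-type replicate 3 or knockout replicate 2 or 3 (adjusted p up to 0.094). Vpreb1, 1 of those that fell, lost its call without knockout replicate 2 or 3 (adjusted p up to 0.061). Neither Rag1 nor Vpreb1 was called with every probe set tested. The part of these other cell types, and of the maturation state of the B cell precursors, in the interferon gene values was not tested.

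**Figure D5:**
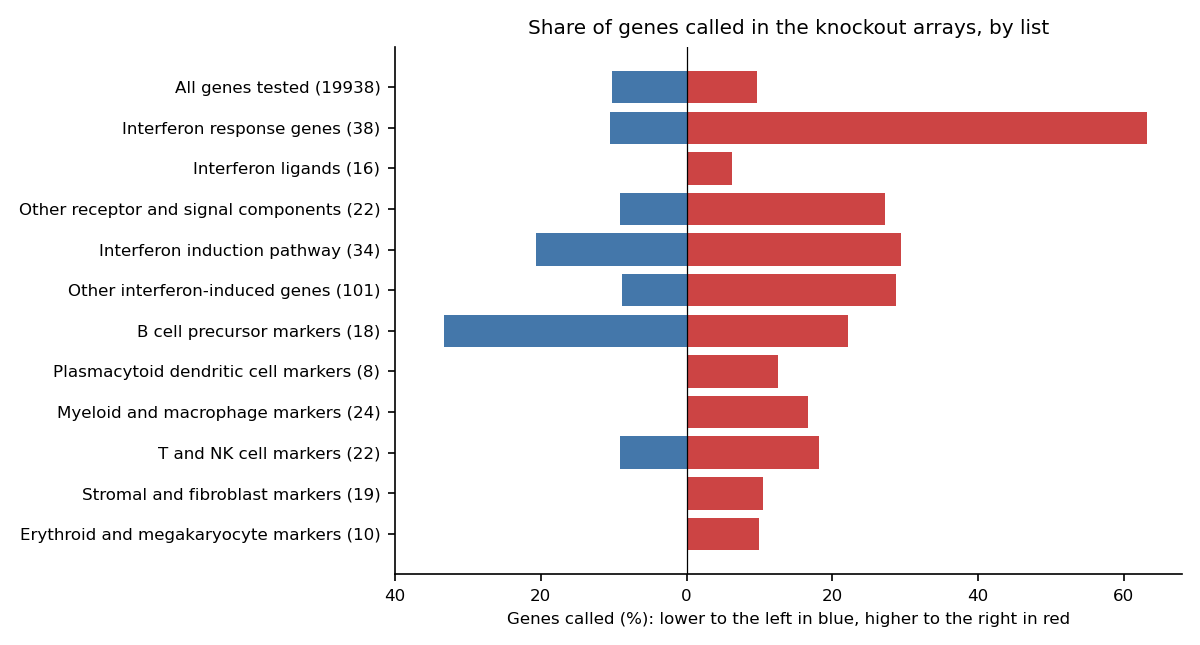
Percentage of genes called higher (red, to the right) or lower (blue, to the left) in the knockout arrays at a limma adjusted p under 0.05, for all genes tested and for each list, with the number of measured genes in brackets. The 38 interferon response genes stand at 63.2% higher and 10.5% lower, beside 9.66% and 10.2% of all genes. The lists were chosen with earlier results of these data known.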

How the data were processed

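Total RNA was measured on 6 Affymetrix arrays. The authors deposited 1 log2 signal per probe set and array, made with RMA and Partek 6.5 per the submitters' processing notes. RMA corrects background, equalises the arrays and summarises probes; its version and settings: not given in the sources used here. That the scale is log2 follows from the values (3.23 to 14.8, array medians 8.38 to 8.42).

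Of 35556 probe sets, the platform annotation gave 21789 exactly 1 gene symbol, 1621 several and 12146 none. The brightest such probe set stood for each gene, which gave 19938 genes. The test was that of limma (version 3.58.1, under R 4.3.3; lmFit, eBayes, genotype as the only term, no further normalization), with Benjamini-Hochberg adjustment over all genes and a threshold of 0.05. All 38 tested members matched the RefSeq gene table of GRCm38.p6 by Entrez identifier, and that table gave names and gene order. Promoter sequences are RefSeq's, of the same assembly.

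The members and lists were chosen with earlier results of these data known. Named genes were all called members, examples of the others, every called gene of the 3 signalling lists, the 8 largest called differences in each direction among other interferon-induced genes, and the 2 largest called in each marker list.

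Alternatives covered normalization, dim genes, probe sets, the variance model, a replicate block and each array left out. Same-numbered arrays of the 2 genotypes did not deviate together (correlations 0.0098, -0.12 and 0.053), so arrays were not paired. In 20 simulated runs on the 19938 genes of this comparison, with 200 changed genes each, limma recovered 40.1% of genes changed by 0.25, 87.9% at 0.5 and 99.8% at 1. The data themselves gave 1926 genes higher and 2028 lower, a far larger share, so these rates need not hold for them. Arrays have no read depth; their number limits the precision.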

Additional observations from a re-analysis of the deposited data

How the results depend on the processing

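Of the 28 called members, 27 kept their call and direction in each of the 14 alternative settings in which they were tested; the exception is Ifnar2, given above. The counts stayed at 22 to 25 higher and 3 or 4 lower, except when genes under the median signal were left out, which tests fewer members: 17 rose, 2 fell and the median difference was 0.29. With each array left out the median ran from 0.23 to 0.26. With the replicate number as a block, 24 members rose and 4 fell, as without it, and no member's call changed. The counts over the 101 other interferon-induced genes ran from 22 to 35 higher and 6 to 10 lower. The median of all genes moved by at most 0.012. The settings for the other lists were added after the data were seen. Among interferon ligands, the genes called higher numbered 0 without genes below the 25th percentile or the median of signal and with every probe set tested, 2 with trend and robust options or the replicate block, and 0 to 2 with an array left out. Ligands called lower numbered 1 after repeated quantile normalization, median centring, the 25th percentile filter or trend and robust options, and 0 to 1 with an array left out. With that block, of the list genes named above, Myd88, Rnf135, Tor3a, Zap70 and Car1 were not called, and 1 of the T and NK cell markers fell. The other receptor and signal components called lower numbered 1 to 2 with an array left out. Signal over background was not tested, which limits what dim genes can show.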

Other observations

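Relatives of the members by symbol, picked by a rule made after the values were seen, add 5 families. Over all genes, 9.66% rose and 10.2% fell at the same limma threshold. Among IFITM genes, 2 of 7 fell. Ifitm1 fell by 0.22 (limma adjusted p = 0.011) beside the 0.93 of Ifitm3, while Ifitm2 differed by -0.07 (adjusted p = 0.42). Guanylate-binding protein genes gave 5 of 8 that rose, with Gbp9 at 0.55, Gbp2b at 0.48, Gbp5 at 0.39 and Gbp7 and Gbp3 at 0.35 each. These genes are close copies of one another, so their probe sets may share signal. Among 11 PARP genes, 5 rose, and the largest increase was that of Parp8 (1.14 ± 0.043, SE), a gene outside the list. Parp11, 1 of those that rose (0.16, limma adjusted p = 0.043), was not called in 8 of the 14 alternative settings. In 5 of these settings an array was left out (adjusted p up to 0.15). Of 11 OAS genes, only Oasl2 passed. Of 5 IFIT genes, 2 rose and 1 fell, and Ifit3b, a close copy of Ifit3, differed by -0.04 (adjusted p = 0.81).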
